A study of Sus scrofa with 3 samples.

Results

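Complement is a system of plasma and cell-surface proteins that tags microbes for uptake, calls in immune cells and lyses membranes. The 9 genes described here encode the central component (C3), the factors B and D of the alternative pathway (CFB, CFD), proteases of the classical pathway (C1R, C1S, C2), the C1 inhibitor (SERPING1) and a pair of membrane regulators that protect host cells (CD46, CD59). They were taken as a set of complement components and regulators, by the gene name of each probe on the array or by a description that names the gene, and the set itself was chosen with earlier results of these data known. They are 9 of 6416 genes with a symbol and 22 of 43603 probes on the array. Of the 22 probes, 19 were found by gene name and 3 by description.

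RNA came from PIE cells, a non-transformed porcine line established from the intestinal epithelium of a newborn animal, and each group was 1 culture on 1 array. The TL2937+ETEC culture had received Lactobacillus jensenii TL2937 and the TL2766+ETEC culture Lactobacillus plantarum TL2766, while the ETEC culture had received control medium. All cultures were grown for 3 days, kept for a further 48 h with the bacteria or with medium, and washed free of bacteria. They then received ETEC PAMPs for 12 h, which are microbial patterns of enterotoxigenic Escherichia coli, an intestinal pathogen. The design also names unchallenged cells, which are not part of what was analysed here. An altered response to the PAMPs and a direct effect of the bacteria cannot be told apart. The question was how complement transcripts in challenged cells differed with each prior lactobacillus. With 1 culture per group there is no spread between replicates and no test, and culture, array and treatment cannot be told apart.

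In the classical pathway the proteases C1r and C1s, bound to C1q on antibody-coated surfaces, are activated in turn. C1s then cleaves C4 and C2 into the parts of an enzyme that splits C3. In the alternative pathway factor D cleaves factor B bound to C3b, which gives a second enzyme of the same kind and amplifies the deposition of C3b. The C1 inhibitor, a serpin, inactivates C1r and C1s, CD46 serves as a cofactor in the breakdown of deposited C3b, and CD59 blocks the final membrane attack complex. The liver is the main source of plasma complement, but epithelial cells, fibroblasts and other cells also make components such as C3, and C3 made in the gut mucosa reaches the lumen.

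Each transcript was read through probes of 60 bases, and the genes with several probes carry their own check, since the same RNA was measured at more than 1 place. The sequences given are all 5 probes of C3 and some of the probes of C2, C1S and SERPING1, the genes with several measured probes that can be set against each other. C2 probe 1, C1S probes 1 and 3 and SERPING1 probe 1 enter those comparisons by their values and are not printed. They are written 5′ to 3′ as the scanner files give them and numbered within a gene by their signal on the ETEC array, brightest first. Capitals mark the run of 39 bases that C3 probes 3 and 4 share. Those probes are therefore not separate readings of the transcript. The files give no genome build for them, so no coordinates are stated.
C3 probe 1: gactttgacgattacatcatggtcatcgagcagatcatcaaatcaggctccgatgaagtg
C3 probe 2: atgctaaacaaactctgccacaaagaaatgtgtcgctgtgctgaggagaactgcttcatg
C3 probe 3: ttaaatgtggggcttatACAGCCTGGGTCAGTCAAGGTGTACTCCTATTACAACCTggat
C3 probe 4: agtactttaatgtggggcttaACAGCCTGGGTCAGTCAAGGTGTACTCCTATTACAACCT
C3 probe 5: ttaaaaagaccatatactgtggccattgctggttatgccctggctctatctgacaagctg
C2 probe 2: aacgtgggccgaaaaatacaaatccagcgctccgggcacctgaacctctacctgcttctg
C1S probe 2: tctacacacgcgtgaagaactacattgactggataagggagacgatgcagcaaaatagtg
C1S probe 4: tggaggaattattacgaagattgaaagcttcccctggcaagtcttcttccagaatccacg
SERPING1 probe 2: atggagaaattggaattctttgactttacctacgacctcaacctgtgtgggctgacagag
SERPING1 probe 3: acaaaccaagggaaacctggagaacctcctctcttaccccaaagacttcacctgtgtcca
The other probe pair with a long overlap was CFD probes 1 and 2, which share 52 bases. Between probes of different members the longest shared run was 9 bases, in C1S and CD46.

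Levels are given as scaled intensity, the processed spot intensity brought to a common 75th percentile of 481 on all 3 arrays. Differences are on the log2 scale, and a gene is represented by its brightest probe. The 75th percentiles before scaling were 503 (TL2937+ETEC), 481 (TL2766+ETEC) and 459 (ETEC), and 62.5%, 61.7% and 60.9% of spots on these arrays carried the scanner software's flag for a signal well above background. Each member probe had 1 spot, so the error after each ± sign below, unless another is named, is the scanner software's own error for a spot carried into the log2 difference. It describes a spot and not a culture. For scale, over 27 other probes with 5 spots each the median SD of a log2 difference was 0.11 between TL2937+ETEC and ETEC (highest 0.45), 0.082 between TL2766+ETEC and ETEC (highest 0.57) and 0.087 between TL2937+ETEC and TL2766+ETEC (highest 0.52).

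The markers went in part against the label of an epithelial line. Of 9 epithelial markers, 6 were on the array, and EPCAM, KRT18 and CLDN4 were not well above background on any array. KRT8 and CLDN3 were above it on all 3 arrays at scaled intensities of 13.9 to 23.9, and CDH1 on the TL2937+ETEC and ETEC arrays. All 6 fibroblast or mesenchyme markers on the array were above background, but only VIM and ACTA2 were bright. On the TL2937+ETEC, TL2766+ETEC and ETEC arrays VIM stood at 242642, 252338 and 251749 and ACTA2 at 41874, 47431 and 53731. COL1A2, DCN, LUM and PDGFRB were dim, at 28.5 to 59.1, so the sum of this list below rests almost wholly on VIM and ACTA2. Of 5 endothelial markers, 4 were above background on all arrays and VWF on the TL2937+ETEC and ETEC arrays. PECAM1 and CDH5 stayed within 55877 to 86718, while KDR (798, 753 and 532) and TEK (2419, 2189 and 1340) were highest in the TL2937+ETEC culture. The leukocyte marker PTPRC was not above background on any array, CD3E was on the TL2937+ETEC and ETEC arrays, and CD14 stood at 723, 741 and 623. Among hepatocyte markers APOA1 stood at 27737, 27122 and 31484, F9 was above background on no array, and ALB and TTR on some arrays only. The summed scaled intensity on the TL2937+ETEC, TL2766+ETEC and ETEC arrays was 82.0, 79.7 and 80.3 for the epithelial list, 284686, 299920 and 305652 for the fibroblast list and 143820, 144201 and 149004 for the endothelial list. It was 746, 756 and 648 for the leukocyte list and 27778, 27138 and 31525 for the hepatocyte list. Except in the fibroblast list, the sums include genes not well above background on some or all arrays. The leukocyte sum rests almost wholly on CD14, the hepatocyte sum on APOA1 and the endothelial sum on PECAM1 and CDH5. The part of cell composition in the complement values was not tested, and in bulk RNA fewer cells of a type cannot be told apart from less RNA per cell.

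In the TL2937+ETEC culture, set against the ETEC culture, the genes of the C1 inhibitor, the protease C1s and factor B stood out among the members. SERPING1, C1S and CFB, 3 of the 9 genes, were at least 1.5-fold lower and well above background on both arrays, which is the call used here. Over all genes 2.25% were called lower in this way. C3, at 1.49-fold, lay just outside the threshold, followed by C1R at 1.47-fold, and C1S, at 1.68-fold, was the member nearest inside it. No member was called higher, against 1.06% of all genes. The median log2 difference of the 9 genes was -0.55, against -0.04 over 4883 genes, and 8 of 9 were below 0, against 59.2% of all genes. At 1.2-fold, 6 of 9 members were lower, against 12.4% of all genes.

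The TL2766+ETEC culture differed less from the ETEC culture. No member was called lower or higher at 1.5-fold, against 1.54% and 1.44% of all genes. C3 and SERPING1 were at least 1.2-fold lower, against 8.95% of all genes, and the median of the 9 genes was -0.23, against 0.0013 over 4858 genes, with 7 of 9 below 0 against 49.6% of all genes. Both comparisons use the same ETEC array, so they are given side by side and not as separate evidence. With the lactobacillus cultures set directly against each other, no member was called lower or higher in the TL2937+ETEC culture, against 1.00% and 0.388% of all genes. At 1.2-fold CFB, C1R, C1S, SERPING1, C2 and CD46 were lower with TL2937 than with TL2766, 6 of 9 against 7.29% of all genes, and the median was -0.38 against -0.043 over 4897 genes. In the main setting 8 of 9 were below 0, against 65.3% of all genes. With a normexp background correction C2 (-0.16) and CD46 (-0.032) were within 1.2-fold in this comparison. That correction models the signal and the background of each spot together, and here an offset of 50 was added to each intensity.

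**Figure D1:**
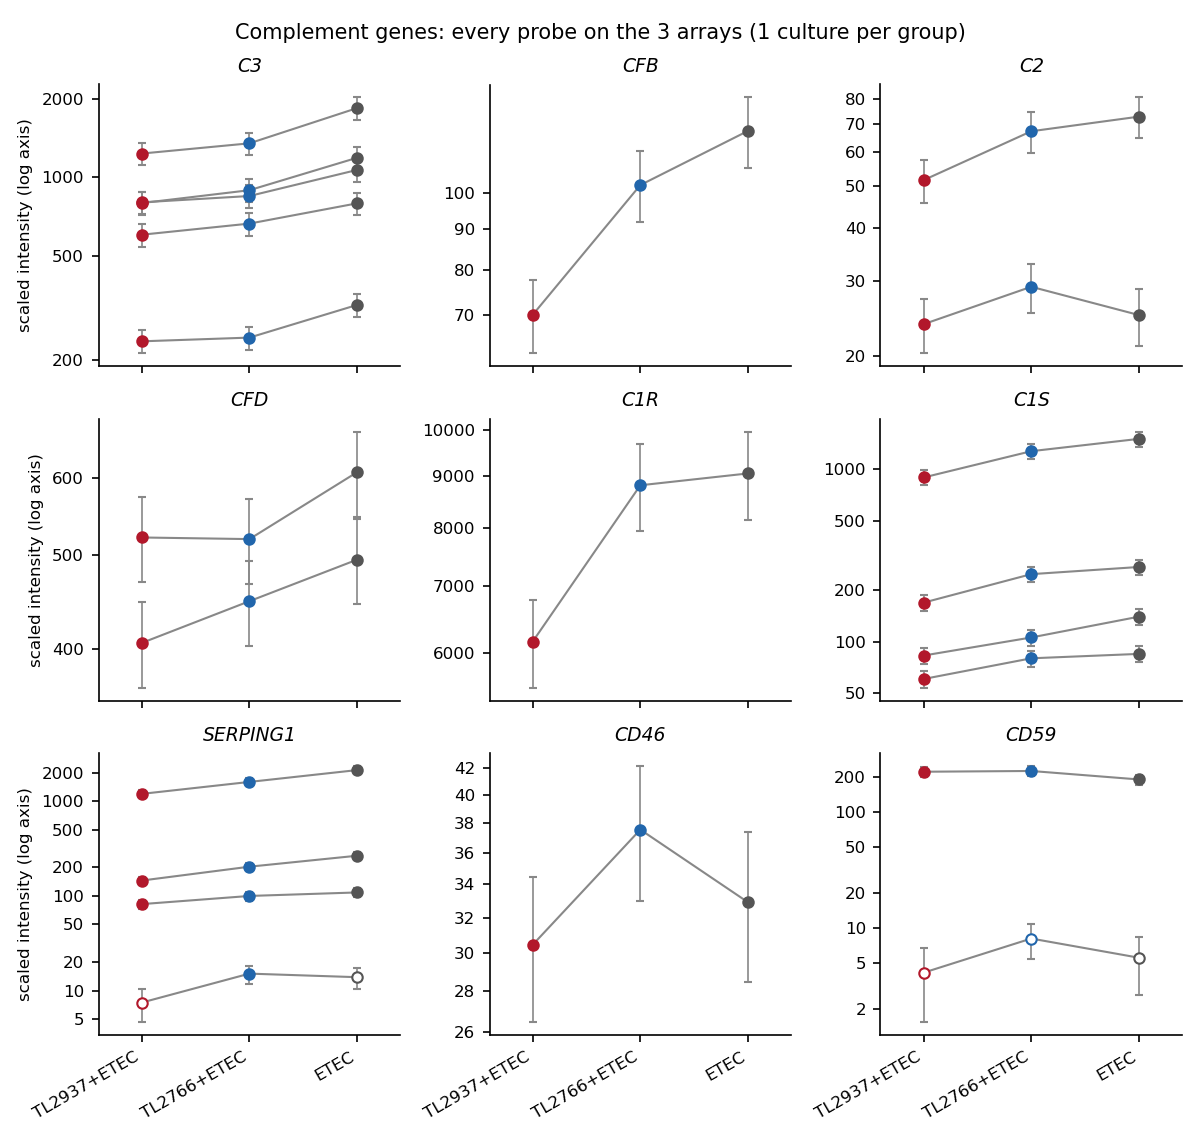
Scaled intensity (log axis, each panel with its own range) of every probe of the 9 genes on the TL2937+ETEC, TL2766+ETEC and ETEC arrays; lines join the values of 1 probe, bars are the scanner software's error for 1 spot, and open points are not well above background. All probes of C3 and C1S, and the 3 brightest of SERPING1, were lowest with TL2937 and highest in ETEC.

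C3 is the component on which all activation pathways meet. Its brightest probe read 1235 in the TL2937+ETEC culture and 1352 in the TL2766+ETEC culture, against 1846 in the ETEC culture. Both lactobacillus cultures stood below ETEC, and they lay close to each other. The log2 difference was -0.58 ± 0.20 for TL2937+ETEC and -0.45 ± 0.20 for TL2766+ETEC, each against ETEC, and -0.13 ± 0.20 between the lactobacillus cultures, which is within the error of a spot. The other 4 probes gave the same order. C3 probe 2 read 797 with TL2937 and 893 with TL2766, against 1190 in the ETEC culture, and probe 3 read 802 and 849, against 1069. Probe 4 read 603 and 665, against 796 in ETEC, and probe 5 read 235 and 243, against 324. The gap between the lactobacillus cultures was the smallest of the 3 comparisons on each probe. Over all 5 probes, 2 of which overlap, the mean log2 difference was -0.49 ± 0.087 for TL2937+ETEC, -0.37 ± 0.078 for TL2766+ETEC and -0.11 ± 0.048 between them (SD over probes of 1 array pair). C3 was the member with the lowest difference for TL2766+ETEC, at rank 156 of 4858 genes from the lowest.

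Factor B supplies the protease part of the alternative pathway enzyme. The single CFB probe read 70.1 with TL2937 and 102 with TL2766, against 120 in the ETEC culture. The TL2937+ETEC culture stood apart from the other cultures, with a log2 difference of -0.78 ± 0.21 from ETEC, or 1.71-fold lower, and of -0.55 ± 0.21 from TL2766+ETEC. The TL2766+ETEC culture differed from ETEC by -0.23 ± 0.21. CFB held rank 46 of 4883 genes from the lowest in the TL2937 comparison with ETEC and rank 529 of 4858 in that of TL2766. The CFB difference was smaller with the normexp background correction, which came with an offset of 50 added to each intensity. It was then -0.42 for TL2937+ETEC against ETEC, and CFB was no longer called. The parts of the offset and of the model in this change were not separated.

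Factor D, the protease that cleaves factor B, differed little between arrays. CFD probe 1 read 521 with TL2937 and 519 with TL2766, against 608 in the ETEC culture. Differences from ETEC were -0.22 ± 0.20 and -0.23 ± 0.20, just past the error of a spot. The lactobacillus cultures differed by 0.0055 ± 0.20. CFD probe 2, which overlaps the first, read 406 with TL2937 and 448 with TL2766, against 494 in the ETEC culture, and gave -0.28 and -0.14 against ETEC.

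C1r is the first protease of the classical pathway to be activated. Its probe read 6163 with TL2937 and 8811 with TL2766, against 9052 in the ETEC culture. Here TL2766+ETEC differed from ETEC by less than the error of a spot, at -0.039 ± 0.20, while the TL2937+ETEC culture differed from ETEC by -0.55 ± 0.20 and from TL2766+ETEC by -0.52 ± 0.20.

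C1s, its partner and substrate, was measured by 4 probes. The brightest read 896 with TL2937 and 1273 with TL2766, against 1501 in the ETEC culture, a log2 difference of -0.74 ± 0.20 for TL2937+ETEC, or 1.68-fold lower, and of -0.24 ± 0.20 for TL2766+ETEC. Probe 2 read 168 with TL2937 and 246 with TL2766, against 271 in ETEC, and probe 3 read 82.98 and 106, against 140. Probe 4 read 60.7 with TL2937 and 80.0 with TL2766, against 84.8 in ETEC. The other probes lay between -0.75 and -0.48 for TL2937+ETEC and between -0.40 and -0.085 for TL2766+ETEC. All 4 probes were lowest with TL2937 and highest in the ETEC culture. Between TL2766+ETEC and ETEC, probe 1 exceeded the error of a spot by little, probe 3 (-0.40 ± 0.21) by more, and probes 2 and 4 lay within it. Over the probes the mean was -0.67 ± 0.13 for TL2937+ETEC against ETEC, -0.22 ± 0.14 for TL2766+ETEC against ETEC and -0.45 ± 0.093 for TL2937+ETEC against TL2766+ETEC (SD over 4 probes). C1R and C1S lie next to each other on the pig genome with 0 protein-coding genes between them in the RefSeq annotation of Sscrofa11.1.

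C2, the substrate of C1s, has a pair of probes that differed in their values against ETEC. Probe 1 read 51.6 with TL2937 and 67.2 with TL2766, against 72.7 in the ETEC culture, which gives -0.49 ± 0.23 and -0.11 ± 0.22 against ETEC and -0.38 ± 0.23 between the lactobacillus cultures. Probe 2 read 23.8 with TL2937 and 29.1 with TL2766, against 25.0 in the ETEC culture, and its differences from ETEC were -0.071 ± 0.30 and 0.22 ± 0.29. Probe 1 is lowest with TL2937 beyond the error of a spot, and probe 2 shows no difference from ETEC that exceeds it. Between the lactobacillus cultures probe 2 gave -0.29 ± 0.28, with the sign of probe 1 and just beyond the error of a spot. With the normexp background correction and its offset of 50, probe 1 gave -0.22 for TL2937+ETEC against ETEC. Between the lactobacillus cultures it gave -0.16, and both values were within 1.2-fold. C2 lies beside CFB in the same annotation, also with 0 protein-coding genes between them.

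The C1 inhibitor gene SERPING1 had the lowest difference of the 9 members when TL2937+ETEC was set against ETEC, at rank 30 of 4883 genes. Its brightest probe read 1192 with TL2937 and 1594 with TL2766, against 2126 in the ETEC culture. On this probe the 3 cultures were spread in steps of similar size. The log2 difference was -0.83 ± 0.20 for TL2937+ETEC, or 1.78-fold lower, and -0.42 ± 0.20 for TL2766+ETEC, each against ETEC. It was -0.42 ± 0.20 between the lactobacillus cultures. SERPING1 probe 2 read 145 with TL2937 and 203 with TL2766, against 265 in the ETEC culture, with differences of -0.87 and -0.38 from ETEC. Probe 3 kept that order with smaller differences, at 81.9 with TL2937 and 99.9 with TL2766, against 109 in ETEC (-0.41 and -0.12). Between the lactobacillus cultures probes 2 and 3 gave -0.49 and -0.29, on each the larger of the steps. Probe 4 was well above background on the TL2766+ETEC array alone (7.49 with TL2937, 15.1 with TL2766 and 13.9 in ETEC), and no fold is given for it. Over probes 1 to 3 the mean was -0.70 ± 0.26 for TL2937+ETEC and -0.31 ± 0.16 for TL2766+ETEC against ETEC (SD over 3 probes). The protease genes C1R and C1S and the gene of their inhibitor each read lowest in the TL2937+ETEC culture. So did 2243 of the 4830 genes well above background on all arrays.

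The membrane regulators did not share that order. CD46 read 30.5 with TL2937 and 37.6 with TL2766, against 32.9 in the ETEC culture, so that the TL2766+ETEC value was the highest. Its differences from ETEC, -0.11 ± 0.27 and 0.19 ± 0.26, were within the error of a spot, and the signal was close to the lowest detected scaled intensities of 11.6 to 12.9. CD59 probe 1 read 223 with TL2937 and 226 with TL2766, against 191 in the ETEC culture. This was the only member with both lactobacillus cultures above ETEC, by 0.22 ± 0.21 and 0.24 ± 0.21, under the 1.2-fold threshold. CD59 probe 2 was not well above background on any array.

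**Figure D2:**
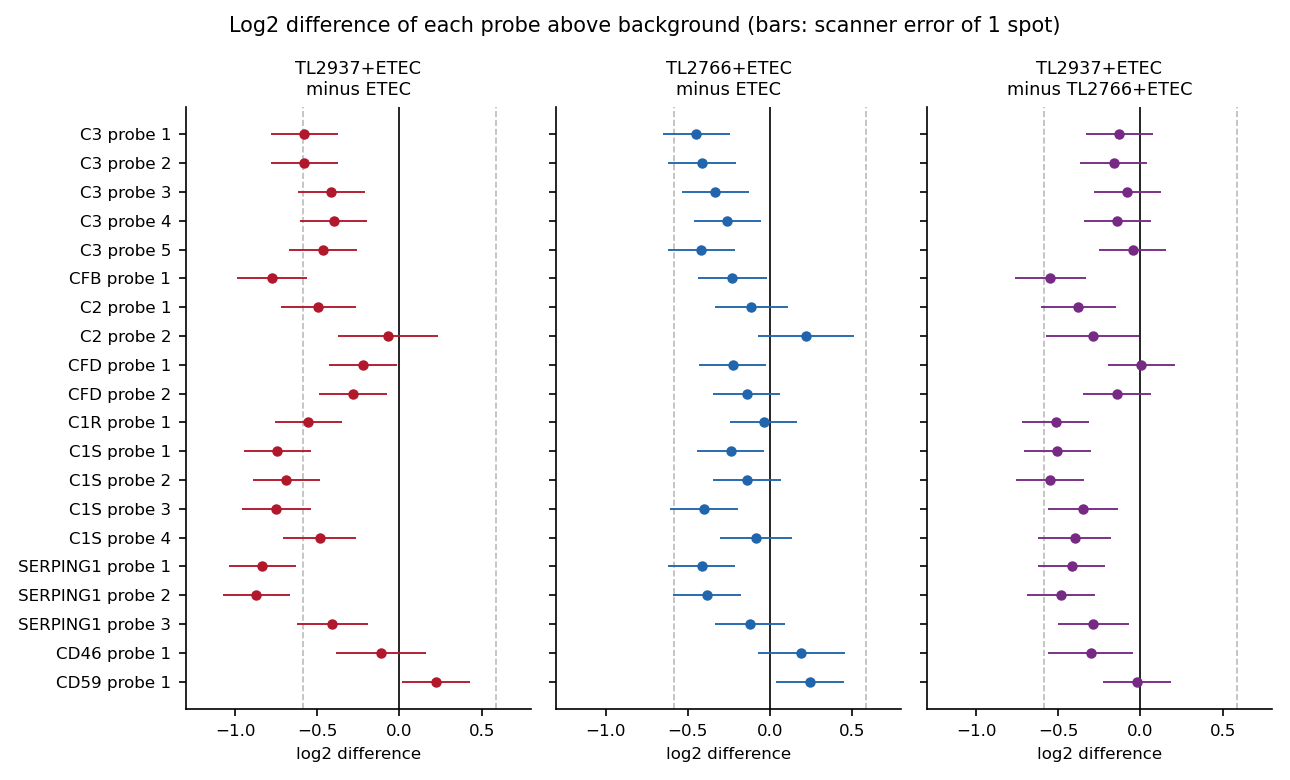
Log2 difference in each of the 3 comparisons for the 20 member probes that were well above background on all arrays, with the scanner software's error for 1 spot as bars; dashed lines mark 1.5-fold. For TL2937+ETEC against ETEC, 19 of 20 probes are below 0 and 6 are at least 1.5-fold lower.

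Counted by probe, 20 of the 22 were well above background on all arrays. Of these, 6 were called lower in the TL2937+ETEC culture against ETEC, against 2.34% of all probes, and 19 were below 0, against 53.1%. In the TL2766+ETEC culture 0 were called lower, against 2.22% of all probes, and 17 were below 0, against 49.2%. Between the lactobacillus cultures 0 were called lower, against 1.19%, and 19 were below 0, against 55.8%. Most of these probes share genes, so they count RNA species more than once. The order TL2937+ETEC lowest, TL2766+ETEC intermediate and ETEC highest was held by 16 of the 20 probes. Its share over all probes was not computed, so the probe count has no background. By gene, 6 of 9 (C3, CFB, C2, C1R, C1S and SERPING1) had this order, or 66.7%, against 29.0% of 4830 genes. In that order the neighbours TL2766+ETEC and ETEC lay within the error of a spot for C2 and C1R, and TL2937+ETEC and TL2766+ETEC for C3. On the brightest probes of SERPING1, C1S and CFB both neighbouring differences exceeded it, by little for C1S and CFB between TL2766+ETEC and ETEC. In that comparison SERPING1 probe 3 (-0.12 ± 0.21) and C1S probes 2 and 4 lay within it.

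**Figure D3:**
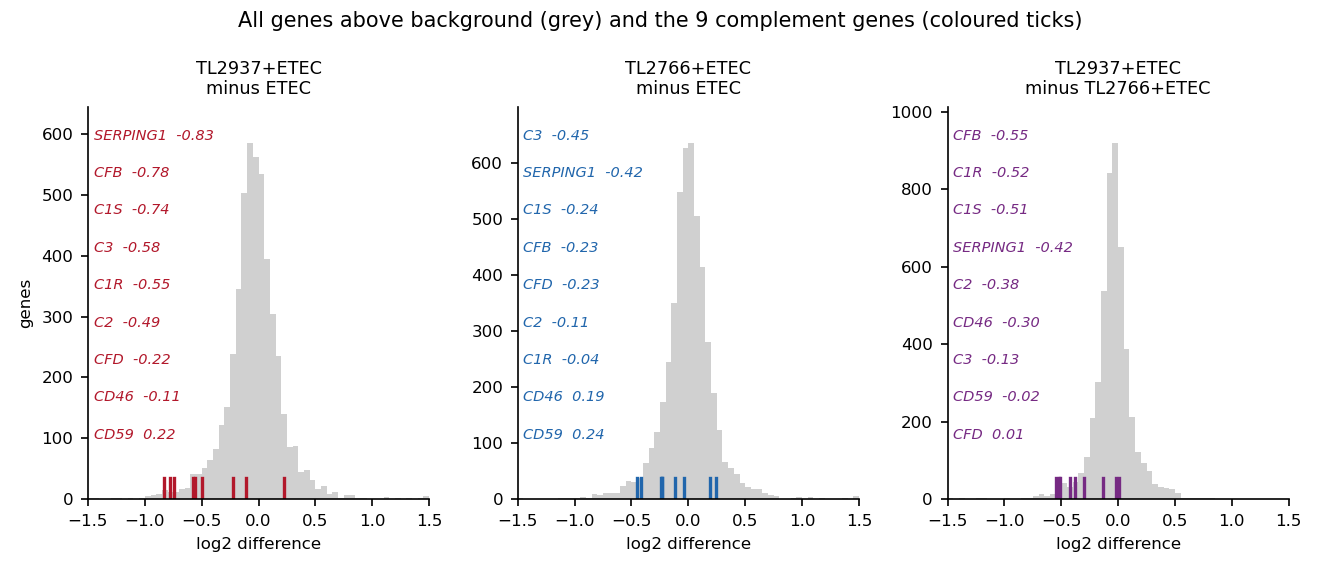
Distribution of the log2 differences of all genes well above background on both arrays in each comparison, with the 9 complement genes marked; genes beyond 1.5 on either side are counted in the outermost bins. In TL2937+ETEC against ETEC, SERPING1, CFB and C1S hold ranks 30, 46 and 55 of 4883 from the lowest.

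Of 47 further complement genes, 27 were on the array and 12 were well above background on all 3 arrays. Above background on no array were the recognition chain C1QA, the terminal components C6, C7, C8A, C8B and C9, the lectin pathway genes MASP2, MBL1, MBL2, FCN1 and FCN2, or ITGB2, CPN1 and CPB2. VSIG4 was above background on the TL2766+ETEC array alone. Among the 12 measured genes 1 (C1QTNF1) was called lower in TL2937+ETEC against ETEC, against 2.25% of all genes. None was called in the other comparisons. Over all genes, 1.54% were called lower and 1.44% higher in TL2766+ETEC against ETEC. Between the lactobacillus cultures those shares were 1.00% and 0.388%. The medians were -0.18 for TL2937+ETEC and -0.099 for TL2766+ETEC, each against ETEC, and -0.12 between the lactobacillus cultures. Over all genes the medians of the same comparisons were -0.04, 0.0013 and -0.043.

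C1QTNF1 encodes a secreted protein with a C1q-like domain and is not itself a complement component. It read 178 with TL2937 and 190 with TL2766, against 269 in the ETEC culture, with differences of -0.59 and -0.50. C5, the start of the terminal pathway, read 22.1 with TL2937 and 28.1 with TL2766, against 32.8 in ETEC (-0.57 and -0.22). MASP1, a lectin pathway protease, read 31.2 with TL2937 and 35.1 with TL2766, against 38.5 in ETEC (-0.30 and -0.13). C5 and MASP1 were dim. The receptor gene C5AR1 took another course, at 715 with TL2937 and 991 with TL2766, against 846 in ETEC, with differences of -0.24 and 0.23. The host-protecting genes CD55 (2120 with TL2937, 2157 with TL2766, 2093 in ETEC) and CLU (5921, 6608 and 6388 on the same arrays) lay within 0.11 of ETEC on the log2 scale.

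**Figure D4:**
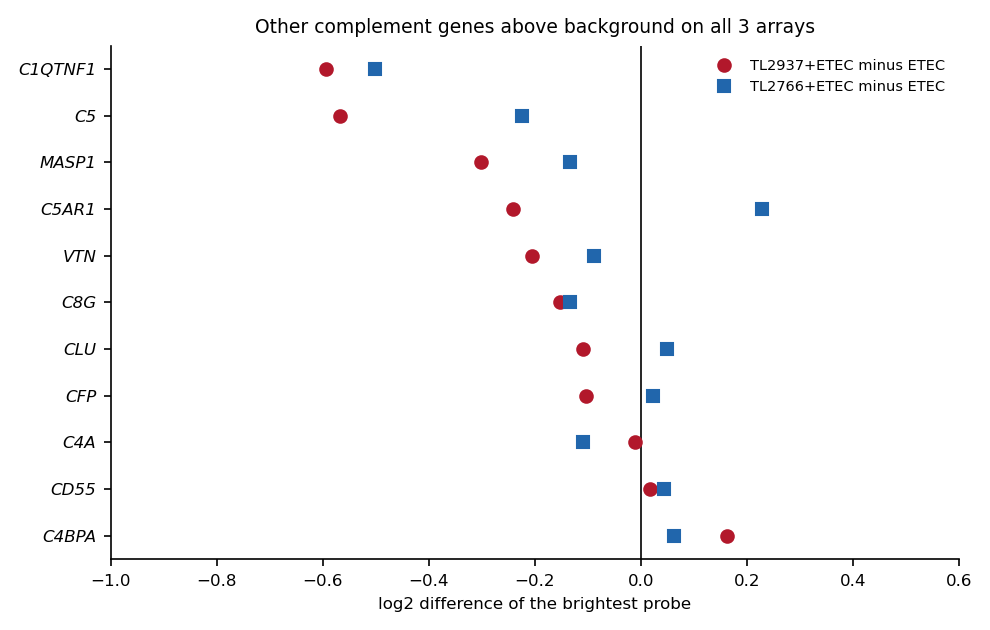
Log2 difference of each lactobacillus culture against ETEC for 11 of the 12 other complement genes well above background on all 3 arrays. Among those plotted, C1QTNF1 and C5 lie furthest below 0 for TL2937+ETEC.

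Several transcription factors and cytokines known to govern complement genes were read on the same arrays. STAT2, an effector of interferon signalling, read 4327 with TL2937 and 5335 with TL2766, against 6196 in the ETEC culture, with differences of -0.52 and -0.22. IRF1 (-0.16 and 0.042), IRF9 (-0.083 and -0.044), NFKB1, RELA and TNF lay within 1.2-fold of ETEC in both cultures. IL6 read 1260 with TL2937 and 2071 with TL2766, against 1442 in ETEC, with differences of -0.19 and 0.52, and was the 1 regulator called lower in TL2937+ETEC against TL2766+ETEC (-0.72), where 1.00% of all genes were. CEBPB (0.24 and 0.38) and CEBPD (0.0093 and 0.16) were not below ETEC. Whether these levels bear on the complement transcripts was not tested. Of 10 acute-phase genes on the array 6 were above background. The serum amyloid gene SAA3 read 6103 with TL2937 and 8651 with TL2766, against 8476 in ETEC. CP (-0.44 and -0.061), HAMP (-0.29 and -0.33), HP (0.28 and -0.35), SAA2 (0.47 and -0.026) and LBP (0.11 and -0.053) did not follow 1 direction. All but SAA3 were dim, at scaled intensities of 22.1 to 58.9, and their probes differed. Another HAMP probe gave 0.44 and 0.054 and another SAA2 probe 0.029 and 0.15, while CP probes reached -0.90 and -0.98.

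The genes with the most similar pair of differences from ETEC were found by distance over 2 differences from 3 arrays, among 4829 genes. Nearest to C3 were ADAMTS2 (-0.59 for TL2937+ETEC and -0.46 for TL2766+ETEC), LHX3, APOC3 and DMD, and nearest to SERPING1 were SAG (-0.81 and -0.43), UBD, ZNF365 and MYOT. Of these, DMD (385 with TL2937, 409 with TL2766 and 562 in ETEC) and UBD (1898, 2653 and 3511 on the same arrays) were bright, and the others stood at scaled intensities of 16.3 to 53.1.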

How the data were processed

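RNA of 3 cultures, 1 per group, was hybridised to 1-colour (Cy3) Agilent porcine arrays, with 200 ng of RNA per labelling per the labels' protocols. The deposited scanner files hold, per the file headers, a processed intensity from Agilent Feature Extraction (version 10.7.3.1), from which background had been subtracted within the array. The authors' value table held the same intensity, rounded, within 0.496% on each array, with medians of 40.9, 38.8 and 37 on the TL2937+ETEC, TL2766+ETEC and ETEC arrays. It is therefore linear and uncentred. The members and gene lists were chosen with earlier results of these data known, so they are not independent evidence.

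From the deposited intensity, log2 values were taken and each array's 75th percentile was subtracted. Control spots were left out, as were outlier spots (9, 4 and 8 per array, none on a member probe), and no spot was saturated. A gene was represented by its brightest probe. Gene names came from the array design, with accessions, gene identifiers and synonyms matched in RefSeq's Sscrofa11.1 table, and 13696 of 43603 probes had a symbol. A gene was called at a fold of 1.5 or more if well above background on both arrays, with 1.2 and 2 as other thresholds. Named genes were all 9 members, the 4 other complement genes per comparison with the largest differences, the 4 genes nearest to C3 and to SERPING1, and lists of regulators, acute-phase genes and cell type markers. A few genes that this rule names are left out of the text and stay in the counts, medians and sums. Array and group cannot be separated, so no block was fitted. Promoter motifs were not searched. The alternatives were normexp (offset 50), scaling by spike-ins, quantiles, the median or cyclic loess, the value table of the authors, the mean of all probes, 2 other background filters and outlier spots kept. The number of arrays limits precision. The steps were checked on simulated data with known differences. The work used limma 3.58.1 in R 4.3.3, and pandas 2.3.3, numpy 2.4.6 and matplotlib 3.10.9 in Python 3.11.15.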

Additional observations from a re-analysis of the deposited data

How the results depend on the processing

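Under 10 alternative settings the median of the members stayed negative in each comparison, but its size moved with normexp. In TL2937+ETEC against ETEC the count of members called lower was 6 at a 1.2-fold and 0 at a 2-fold threshold. Only 7 of 4883 genes were at least 2-fold lower in that comparison. The medians with a normexp background correction were -0.42 in TL2937+ETEC against ETEC, -0.083 in TL2766+ETEC against ETEC and -0.16 in TL2937+ETEC against TL2766+ETEC. At 1.2-fold, 2 members were lower in TL2766+ETEC against ETEC and 6 in TL2937+ETEC against TL2766+ETEC. The median of the other complement genes for TL2766+ETEC against ETEC was 0.049 when both arrays had to exceed the median detected signal, which left 3 genes. Among single-member values 245 stayed and 13 moved. Many of the 245 could not move. All members passed the background filter and no member spot was an outlier, so the filter and outlier settings returned the same values. The value table of the authors is the same intensity rounded, and the mean of all probes cannot move a gene with 1 measured probe. The count is therefore no measure of robustness. With normexp CFB fell below the call for TL2937+ETEC against ETEC (-0.42) while C3 and C1R passed it, and C3 also passed it with median scaling. CD46 in TL2937+ETEC against ETEC (-0.13 to 0.011), C2 in TL2766+ETEC against ETEC (-0.14 to 0.053), and CFD (-0.068 to 0.049) and CD59 (-0.034 to 0.052) between the lactobacillus cultures took both signs over the settings. The cause was not tested. No paired analysis was possible because each group has 1 array and no result comes from a test. Signal over background limits CD46, C2 probe 2, SERPING1 probe 4 and CD59 probe 2, and no culture was repeated.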
